A study of Mus musculus with 6 samples.

Results

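Heterotrimeric G proteins carry the signal of seven-helix receptors into the cell. An alpha subunit binds GTP when a receptor is active and parts from its beta-gamma pair, and both parts act on enzymes and channels until the alpha subunit hydrolyses the GTP. RGS proteins (regulators of G protein signalling) speed up that hydrolysis and so end the signal. In the nose, odorant receptors of the main epithelium use the alpha subunit Golf (Gnal) with the gamma subunit Gng13, whereas vomeronasal sensory neurons use Gnai2 or Gnao1. The values below concern the remaining subunits and the RGS genes in the newborn olfactory epithelium of Atf5 knockout mice. Of 46 listed genes, 44 were measured by a row that names a single gene, among 19937 genes in all: 13 alpha, 5 beta and 9 gamma subunits and 17 RGS genes. Gnas was left out by that rule because its row also names Gnasas1, and Rgs10 was not analysed here. Gnal, Gng13 and Gnat3 were kept out of the list and are given once for comparison.

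The samples were olfactory septa and turbinates of Atf5-/- and Atf5+/+ C57BL6 pups on the day of birth (P0), from crosses between heterozygous parents. Each genotype had 3 samples, and each sample pooled tissue of 3 pups from different litters and was hybridised to 1 whole-transcript array. How the Atf5 allele was made is not given in the labels, and neither genotype carried another stated allele or treatment. The tissue is a dissection rather than a sorted population, so neurons, supporting cells, vessels and leukocytes can all contribute RNA.

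All levels below are log2 values per probe set as deposited, and a change is knockout minus wild type on that scale. The median level per array lay between 8.67 and 8.72, and arrays correlated at 0.988 to 0.994 over all rows. In lists of markers of other tissues the wild-type arrays differed among themselves, with values given at the end. Replicate 1 was the lowest of them in skeletal muscle genes. In enamel genes replicates 1 and 2 were high, while replicate 3 lay near the knockout arrays. Atf5 itself was at 9.43, 9.44 and 9.50 in the knockout arrays and at 10.54, 10.96 and 10.63 in the wild-type arrays, the direction the labels give. Of 10 markers of mature olfactory neurons all were measured, and their mean was 9.15, 9.25 and 9.11 in the knockout arrays, against 10.90, 10.58 and 10.70 in the wild-type arrays. Because whole tissue was measured, fewer cells of a type and less RNA per cell cannot be told apart in any value that follows.

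Upstream regions are shown because they stand in front of the gamma subunit genes that fell, Gng3 and Gng8, and of the alpha subunit gene that rose, Gnai1. They are RefSeq sequences of build GRCm38.p6, 5′ to 3′ on the gene's strand, and end at the base before the outermost annotated start of the gene. They lie at chr19:8839247-8839496 (minus strand), chr7:16891536-16891736 (plus strand) and chr5:18360414-18360663 (minus strand). Capitals mark the dinucleotide CG, the site of DNA methylation.
Gng3: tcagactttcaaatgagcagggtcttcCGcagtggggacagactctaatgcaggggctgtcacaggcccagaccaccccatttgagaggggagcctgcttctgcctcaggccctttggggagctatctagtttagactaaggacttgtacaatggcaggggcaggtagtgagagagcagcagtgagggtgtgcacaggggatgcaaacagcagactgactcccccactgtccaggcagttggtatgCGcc
Gng8: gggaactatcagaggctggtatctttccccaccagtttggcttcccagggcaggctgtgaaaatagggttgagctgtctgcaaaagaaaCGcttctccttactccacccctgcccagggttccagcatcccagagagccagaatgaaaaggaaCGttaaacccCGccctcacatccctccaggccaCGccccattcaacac
Gnai1: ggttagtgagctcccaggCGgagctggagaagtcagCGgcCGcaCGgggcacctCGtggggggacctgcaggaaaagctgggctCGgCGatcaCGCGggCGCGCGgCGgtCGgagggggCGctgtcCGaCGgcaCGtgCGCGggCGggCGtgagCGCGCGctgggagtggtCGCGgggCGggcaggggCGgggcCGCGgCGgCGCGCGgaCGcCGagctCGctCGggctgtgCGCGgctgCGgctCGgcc
The Gng3 region of 250 bases held 2 CG, the Gng8 region of 201 bases held 4, and the Gnai1 region of 250 bases held 43. Over the 250 bases before each start, the median was 17 CG for 47 windows of 35 listed genes and 6 for all 32851 windows. The windows of Gnao1 (36) and Gnb1 (26) were CG-rich, although both genes fell, those of Rgs3, which fell too, held 3 and 7, and 13 windows of listed genes had 5 or fewer CG, among them a window of Gng7 (2) and those of Gng2 (3) and Gnb5 (3), genes which did not pass the test. Each window precedes 1 annotated start, so some reached into the gene. The Gnao1 window and the Rgs3 window with 7 CG lay wholly inside the annotated gene. The Gnb1 window lay partly inside, and its 189 bases before the outermost start held 13 CG. A relation between CG number and change was not tested. A search of both strands for the Ebf palindrome (the 10-letter consensus of Ebf factors), TGACGTCA (a CRE) and TGATGCAA (an amino acid response element) found no match in the 47 windows, and each motif was present in 0.779%, 1.55% and 0.791% of all windows in that order.

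Setting knockout against wild-type arrays asks which of these signalling genes differ when Atf5 is missing. By limma with adjustment over all genes, 6 of 44 passed the threshold of 0.05 (13.6%), against 3.74% of all genes. The alpha subunit Gnai1 rose, and the alpha subunit Gnao1, the beta subunit Gnb1, the gamma subunits Gng3 and Gng8 and the regulator Rgs3 fell. One higher member is 2.27% of those measured, against 0.502% of all genes, and 5 lower members are 11.4%, against 3.24%. The remaining 38 did not pass, with changes between -0.28 and 0.24, and 24 of them lay within 0.1 of 0. The median change was 0.00 over the members and 0.01 over all genes. The arrays of both genotypes did not overlap for 11 members (25.0%), against 21.1% of all genes, so separation of the arrays was about as common here as elsewhere. With replicate 1, 2 or 3 of the knockout left out, 2, 3 and 4 members were lower and 0, 0 and 2 higher. Over all 19937 genes those fits gave 403, 479 and 522 lower genes and 52, 31 and 127 higher ones. With replicate 1, 2 or 3 of the wild type left out, 1, 1 and 3 members were lower and 0, 1 and 1 higher. Over all genes these fits gave 383, 491 and 584 lower genes and 27, 107 and 53 higher ones. The share of members past the threshold thus depended on the array left out. Without replicate 1 of the wild type, a call was about as common among the members as over all genes.

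**Figure D1:**
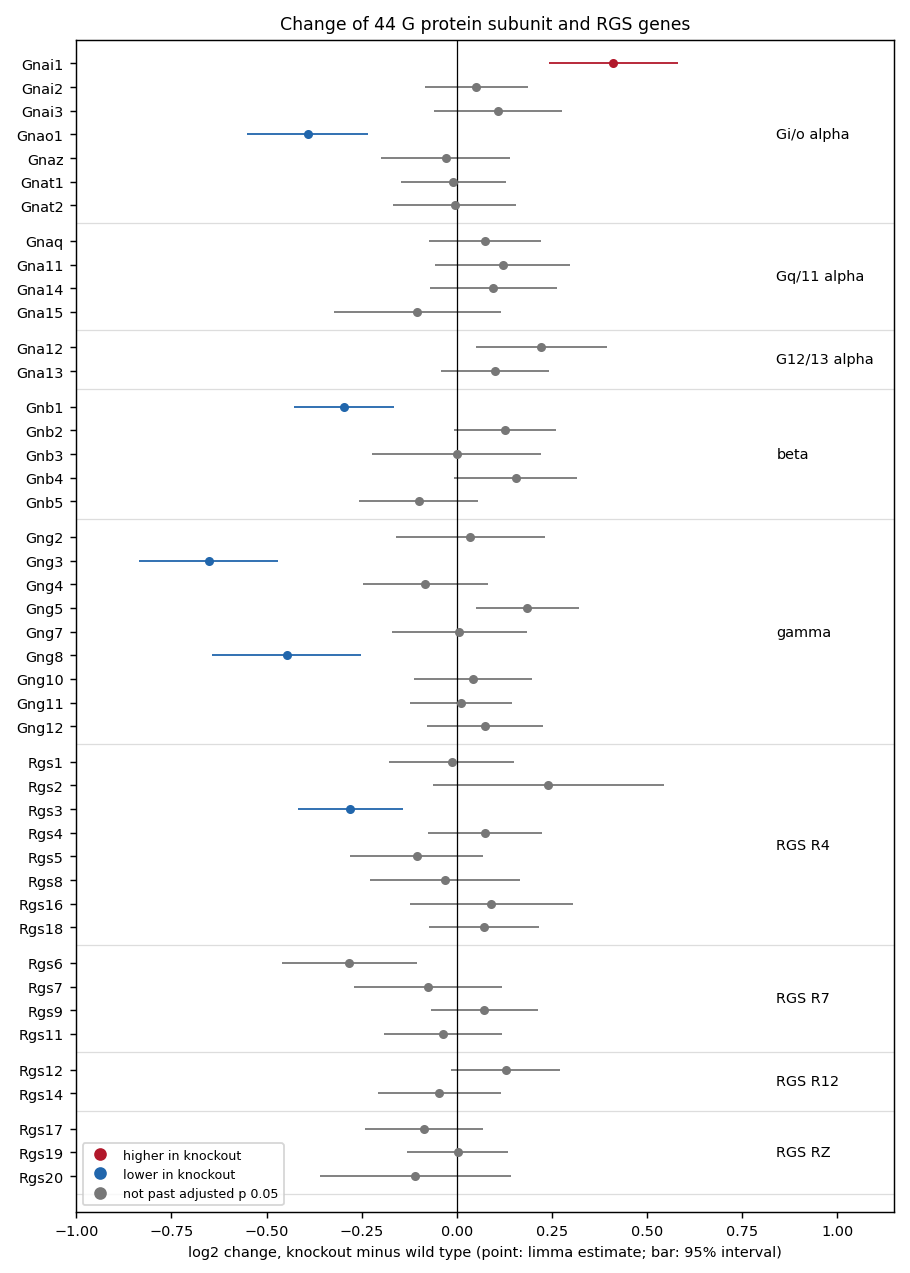
Log2 change (knockout minus wild type, x axis) of the 44 measured genes by role, with limma's 95% interval as bars. Gng3 lies farthest below 0 at -0.65 and Gnai1 farthest above at 0.41, and most other intervals include 0.

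Alpha subunits of the Gi/o class lower cyclic AMP or act through their beta-gamma partners, and 7 were measured. Gnai1, an inhibitor of adenylyl cyclase, was at 10.81, 10.82 and 10.76 in the knockout arrays and at 10.42, 10.49 and 10.24 in the wild-type arrays. Every knockout array lay above every wild-type array. Its mean was 10.79 ± 0.03 in the knockout and 10.38 ± 0.13 in the wild type (SD, n = 3 each), a 1.33-fold increase (95% interval 1.18 to 1.49, adjusted p = 0.0173). It did not pass when replicate 1 or 2 of the knockout was left out (adjusted p = 0.0693 and 0.0669, change 0.40 in both) or replicate 1 of the wild type (0.0549, change 0.43).

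Gnao1, the Go alpha subunit abundant in neurons and used by basal vomeronasal neurons, moved the other way. It was at 11.96, 12.05 and 11.87 in the knockout arrays, against 12.43, 12.35 and 12.28 in the wild-type arrays, again with no overlap. The change was -0.39 (SE 0.07, adjusted p = 0.0159), or 1.31-fold lower in the knockout (1.18 to 1.46). It did not pass when replicate 1 of the knockout was left out (adjusted p = 0.0624), or replicate 1 or 2 of the wild type (0.0730 and 0.0506). The Gi/o class thus held 1 gene that rose, 1 that fell and 5 that did not pass.

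Gnai2, the alpha subunit of apical vomeronasal neurons, was at 11.83, 11.93 and 11.92 in the knockout arrays and at 11.82, 11.82 and 11.88 in the wild-type arrays. Its change of 0.05 had an interval of -0.08 to 0.19, so a change as large as that of Gnao1 or Gnai1 lies outside it. The change was 0.11 (-0.06 to 0.28) for Gnai3 and, for Gnaz, a pertussis toxin-resistant member of the class, -0.03 (-0.20 to 0.14). The rod and cone transducins Gnat1 (-0.01) and Gnat2 (-0.01) are genes of photoreceptors and were among 8 members below the 30th percentile of level over all genes, where array values can compress changes. The members of that dim set ranged from -0.10 to 0.07.

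None of the 4 Gq/11 and 2 G12/13 alpha subunits passed. Gnaq (0.07), Gna11 (0.12) and Gna14 (0.10), which activate phospholipase C beta, lay above 0, and Gna15, known from blood cells, was at -0.10 (-0.32 to 0.12). Gna12, which acts on the actin cytoskeleton, was at 11.25, 11.41 and 11.25 in the knockout arrays and at 11.03, 11.02 and 11.20 in the wild-type arrays. Its arrays did not overlap, but its change of 0.22 did not pass (adjusted p = 0.185), and neither did that of its relative Gna13 (0.10, adjusted p = 0.490). The row that names Gnas, the Gs alpha subunit, together with Gnasas1 was at 11.81, 11.80 and 11.87 in the knockout arrays and at 11.62, 11.79 and 11.74 in the wild-type arrays. The difference of 0.11 in that row did not pass (adjusted p = 0.537 over all rows), and the row cannot be assigned to Gnas alone.

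Of 5 beta subunits, Gnb1 fell and 4 did not pass. Gnb1 is the widely expressed beta subunit that also partners Golf in olfactory cilia. It was at 13.70, 13.74 and 13.72 in the knockout arrays and at 14.07, 14.01 and 13.98 in the wild-type arrays, with no overlap and a within-genotype SD of 0.02 and 0.04. The change of -0.30 (SE 0.06, adjusted p = 0.0227) is 1.23-fold lower in the knockout (1.12 to 1.34). These levels are close to the highest value on any array, 14.7, where changes can be compressed as well. The call was lost when replicate 1 or 2 of the knockout was left out (adjusted p = 0.0952 and 0.0618), or any replicate of the wild type (0.109, 0.0653 and 0.0547), while the change stayed between -0.31 and -0.27.

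The other beta subunits spanned -0.10 to 0.15. Gnb2 was at 11.65, 11.60 and 11.64 in the knockout arrays and at 11.45, 11.50 and 11.56 in the wild-type arrays, a change of 0.13 that did not pass (adjusted p = 0.344) although the arrays did not overlap. Gnb4 was at 0.15 (-0.01 to 0.31), and Gnb3, the beta subunit of cones and taste cells, at -0.00 (-0.22 to 0.22). Gnb5, an atypical beta subunit that pairs with R7 RGS proteins rather than with a gamma subunit, was at -0.10 (-0.26 to 0.06).

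Gamma subunits anchor the beta-gamma pair to the membrane, and 2 of 9 fell while 7 did not pass. Gng3, a gamma subunit of neurons whose CG-poor upstream region is shown above, had the greatest change of the 44 genes. It was at 9.54, 9.67 and 9.43 in the knockout arrays, against 10.18, 10.31 and 10.11 in the wild-type arrays. The gap between the genotypes exceeded the range within either. The mean was 9.55 ± 0.12 in the knockout and 10.20 ± 0.10 in the wild type (SD, n = 3 each), so that Gng3 was 1.57-fold lower in the knockout (1.39 to 1.78, adjusted p = 0.00280). It passed under all 13 alternatives tried, some of which (averaging probe sets, filtering by level) left the change itself the same.

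Gng8, the gamma subunit of immature olfactory and of vomeronasal neurons, was at 9.63, 9.62 and 9.36 in the knockout arrays and at 10.05, 10.01 and 9.88 in the wild-type arrays. The arrays did not overlap, and knockout replicate 3 was the lowest of the 6. The change of -0.45 (SE 0.09, adjusted p = 0.0225) corresponds to a level 1.36-fold lower in the knockout (1.19 to 1.56). It did not pass without wild-type replicate 1 or 2 (adjusted p = 0.1001 and 0.0724).

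Gng5, a widely expressed gamma subunit, was at 10.66, 10.71 and 10.58 in the knockout arrays and at 10.47, 10.46 and 10.47 in the wild-type arrays. All knockout arrays lay above the wild-type arrays, yet the change of 0.18 (0.05 to 0.32) did not pass (adjusted p = 0.160). The 6 other gamma subunits that did not pass, Gng2, Gng4, Gng7, Gng10, Gng11 and Gng12, lay between -0.08 and 0.07.

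**Figure D2:**
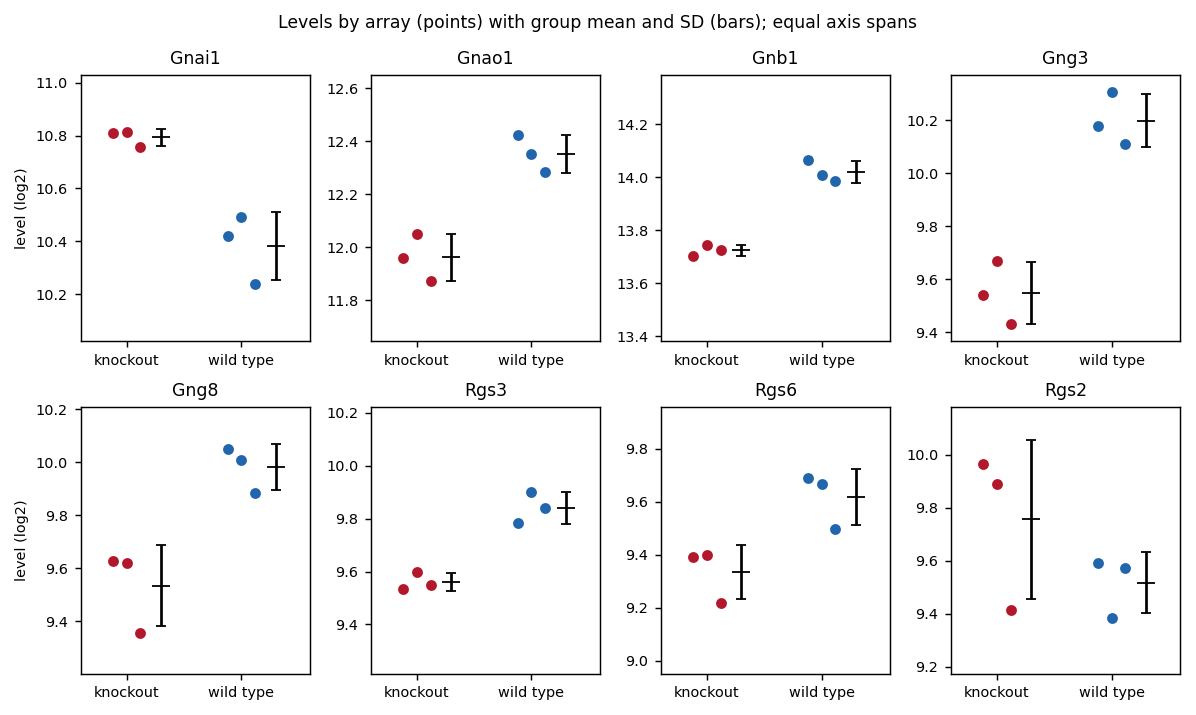
Log2 level on each array (points, knockout left and wild type right) of the 7 members past the threshold with or without the replicate block and of Rgs2, with mean and SD (bars, n = 3) and equal axis spans. The genotypes separate in every panel but that of Rgs2, where the lowest knockout array is at 9.41.

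Changes of over 1 log2 unit were measured for the odour-transduction subunits that were kept out of the list. Gnal was at 9.52, 9.49 and 9.49 in the knockout arrays and at 12.01, 11.76 and 11.80 in the wild-type arrays, a change of -2.36 (adjusted p = 2.12e-06). Gng13 was at 9.23, 9.49 and 9.46 in the knockout arrays and at 11.17, 10.93 and 10.995 in the wild-type arrays, a change of -1.63 (adjusted p = 6.23e-05). Gnat3, gustducin of taste and chemosensory cells, differed by 0.02 and did not pass (adjusted p = 0.912). The change of Gng3 was -0.65 on the same scale, and no test between these genes was made.

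RGS proteins of the R4 subfamily are small GTPase-activating proteins for Gi and Gq alpha subunits, and 1 of 8 fell. Rgs3 was at 9.53, 9.60 and 9.55 in the knockout arrays and at 9.78, 9.90 and 9.84 in the wild-type arrays, a change of -0.28 (SE 0.06, adjusted p = 0.0390). This call rests on 1 of 2 probe sets. The other probe set of Rgs3 was at 9.18, 9.18 and 9.26 in the knockout arrays and at 9.10, 9.12 and 9.09 in the wild-type arrays, a change of 0.10. The difference between both probe sets was 0.35, 0.42 and 0.29 in the knockout arrays, against 0.68, 0.78 and 0.75 in the wild-type arrays. The groups did not overlap in this difference, but an exact 2-sided permutation test of 3 arrays against 3 cannot go below 0.1 and so could not pass the threshold. With the mean of both probe sets the change was -0.09 (adjusted p = 0.517), with median centring it did not pass (adjusted p = 0.0503), and the call ended whichever array was left out (adjusted p 0.0741 to 0.137).

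Rgs2, a regulator of Gq that is also known to act on olfactory adenylyl cyclase, had the widest spread of the members and is named because of it, after its values were seen. It was at 9.97, 9.89 and 9.41 in the knockout arrays and at 9.59, 9.39 and 9.57 in the wild-type arrays. Knockout replicate 3 lay among the wild-type arrays while the other knockout arrays lay above them. The change of 0.24 (-0.06 to 0.54) did not pass (adjusted p = 0.435), whereas without knockout replicate 3 it was 0.41 (adjusted p = 0.0384). Rgs5, a gene of pericytes, was at 12.54, 12.55 and 12.41 in the knockout arrays and at 12.63, 12.70 and 12.47 in the wild-type arrays, a change of -0.11 (-0.28 to 0.07). Rgs16 (0.09), Rgs4 (0.07), Rgs8 (-0.03) and the leukocyte and platelet genes Rgs1 (-0.01) and Rgs18 (0.07) did not pass.

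The R7 subfamily acts on Gi/o alpha subunits as a complex with Gnb5, and none of 4 measured genes passed. Rgs6 was at 9.39, 9.40 and 9.22 in the knockout arrays and at 9.69, 9.67 and 9.50 in the wild-type arrays. The groups did not overlap, and replicate 3 was the lowest array of its genotype in both. The change of -0.28 (SE 0.08) did not pass (adjusted p = 0.0987), but it passed with the replicate number as a block (adjusted p = 0.0236). With that block 7 of 44 members passed (15.9%), against 6.57% of all genes, the additional one being Rgs6: 1 was higher, against 2.11% of all genes, and 6 were lower, against 4.46%. Rgs7 (-0.08), Rgs9 (0.07) and Rgs11 (-0.04) did not pass. Neither did Rgs12 (0.13) and Rgs14 (-0.05) of the R12 subfamily, which acts on Gi/o, or Rgs17 (-0.09), Rgs19 (0.00) and Rgs20 (-0.11) of the RZ subfamily, which acts on Gnaz and other Gi/o subunits. By median, RGS genes stood at -0.03, alpha subunits at 0.07, beta subunits at -0.00 and gamma subunits at 0.01, beside 0.01 for all genes.

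**Figure D3:**
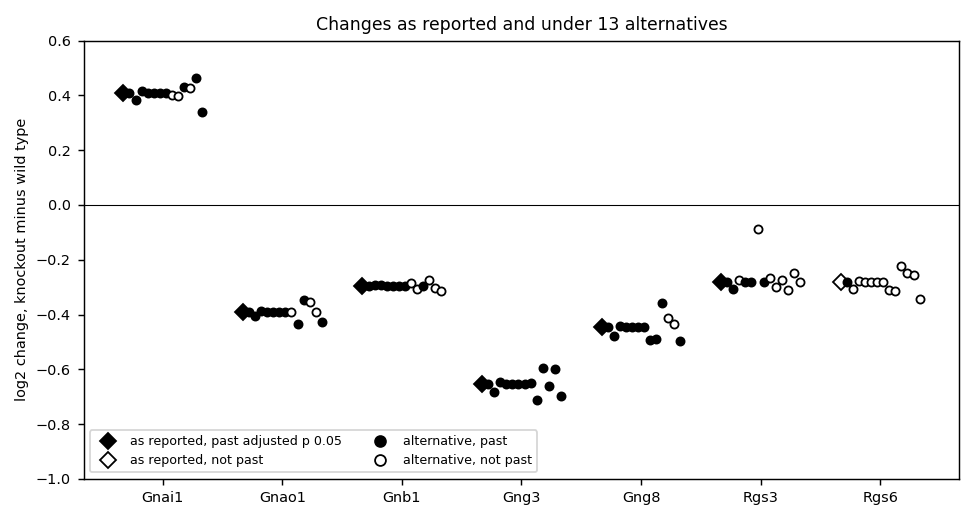
Log2 change of 7 members as reported (diamonds) and under 13 alternatives (circles), filled where the adjusted p was under 0.05. The values of Gng3 are filled throughout, and the isolated open circle of Rgs3 at -0.09 is the mean of its 2 probe sets.

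Proteins that fold, anchor or follow these subunits were taken as a list of 34 genes, of which 33 were measured. Of these 3 fell (9.09%, against 3.24% of all genes), 0 rose and 30 did not pass, with a median change of -0.00. Ric8b, the chaperone and exchange factor of Golf, was at 10.33, 10.36 and 10.16 in the knockout arrays and at 11.55, 11.37 and 11.19 in the wild-type arrays. It was 2.12-fold lower in the knockout (change -1.09, SE 0.10, adjusted p = 0.000676). Its paralog Ric8a, which serves Gi, Gq and G12/13 subunits, was at 9.96, 9.70 and 9.62 in the knockout arrays and at 9.61, 9.41 and 9.55 in the wild-type arrays, a change of 0.24 that did not pass (adjusted p = 0.264).

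Rgs7bp, a membrane anchor of R7 RGS proteins, was at 8.57, 8.57 and 8.56 in the knockout arrays and at 9.05, 9.07 and 9.001 in the wild-type arrays, a change of -0.47 (SE 0.06, adjusted p = 0.00236). Gpr158, an orphan receptor that binds the complex of Rgs7 and Gnb5, was at 8.14, 8.39 and 7.97 in the knockout arrays and at 9.16, 8.67 and 8.81 in the wild-type arrays. Its change of -0.71 (SE 0.14, adjusted p = 0.0219) did not pass when replicate 1 or 3 of the knockout was left out (adjusted p = 0.0776 and 0.0631) or replicate 1 of the wild type (0.0602). Other partners of R7 RGS proteins in the list, the anchor Rgs9bp (-0.06) and the receptor Gpr179 (-0.09), did not pass. Receptor kinases, arrestins, phospholipases C beta, Arhgef genes and Kcnj channels of the list did not pass.

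**Figure D4:**
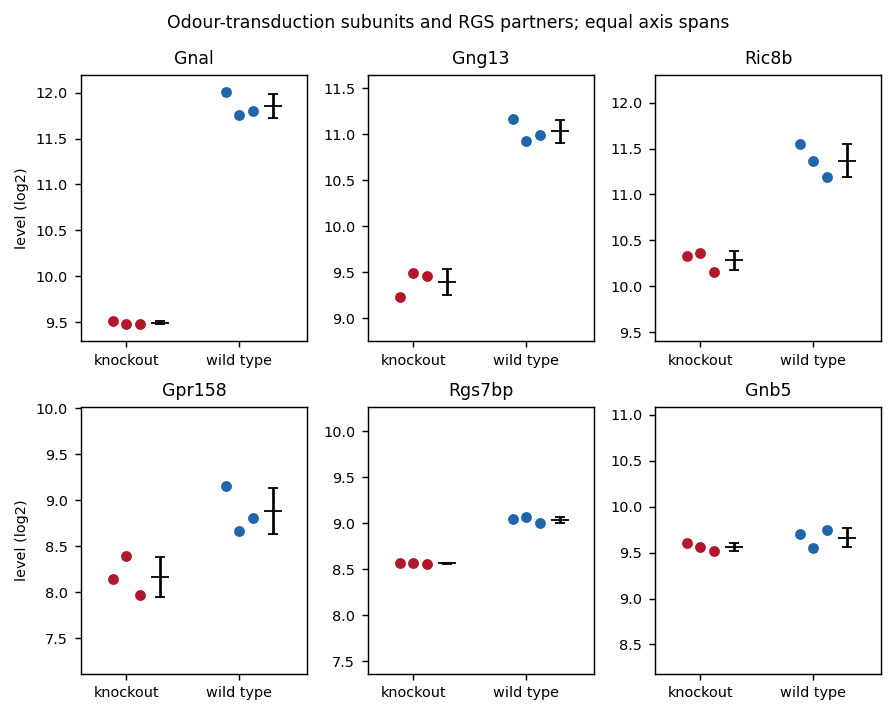
Log2 level on each array (points, knockout left and wild type right) of Gnal, Gng13, Ric8b, Gpr158, Rgs7bp and Gnb5, with mean and SD (bars, n = 3) and equal axis spans. Gnal shows the widest gap, at 9.50 on average in the knockout and 11.85 in the wild type, and the arrays of Gnb5 overlap.

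The means of the mature and of the immature neuron list were both lower on every knockout array than on any wild-type array. The median change was -1.54 over the mature and -0.16 over the immature markers. Of 10 mature neuron markers 9 fell. Of 8 immature neuron markers 2 fell, Gap43 (-0.43) and Dcx (-0.68), and 6 did not pass, among them Ablim1 (0.18) and Marcksl1 (0.20), which lay above 0. With the replicate block 3 of 8 fell, the additional one being Stmn2 (-0.26, adjusted p = 0.0480). The array means of that list were 10.83, 10.90 and 10.75 in the knockout, against 11.06, 10.98 and 10.95 in the wild type. Vomeronasal neuron markers, 4 of 5 measured, held no gene that passed, and their means were 9.71, 9.58 and 9.17 in the knockout, against 9.73, 9.51 and 9.57 in the wild type. Trpc2 was not measured. The receptor genes Vmn2r1 (7.57 in the knockout, 7.90 in the wild type) and Vmn1r51 (6.54 and 6.60) were dimmer than Meis2 (11.23 and 11.23) and Calr (12.61 and 12.67). Whether vomeronasal neurons differed cannot be told from this mean. Knockout replicate 3, the lowest array of Gng8, was also the lowest of the 6 in the mature, immature, vomeronasal and sustentacular lists. The part of these cell types in the changes of Gnao1, Gnb1, Gng3 and Gng8 was not tested.

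Vessel and leukocyte markers lay on the other side. Endothelial markers averaged 10.55, 10.57 and 10.55 in the knockout arrays, against 10.27, 10.48 and 10.30 in the wild-type arrays, with 0 of 5 past the threshold. Pericyte markers averaged 9.58 to 9.69 in the knockout and 9.36 to 9.53 in the wild type, and leukocyte markers 9.04 to 9.17 in the knockout and 8.94 to 8.99 in the wild type, with 0 of 6 and 0 of 8 past it. Gnai1 was higher on the same arrays, and the part of these cells in its change was not tested. Of the pericyte markers 5 of 6 lay above 0 and Kcnj8 was at -0.11, as was Rgs5. Des had the greatest change of that list (0.53), and the others did not exceed 0.17. On wild-type replicate 1, the lowest array in skeletal muscle genes, Des was at 8.12, against 9.02 on both other wild-type arrays. Enamel genes, known from developing teeth, averaged 8.60, 7.98 and 9.02 in the knockout arrays, against 11.61, 11.35 and 9.41 in the wild-type arrays. Of 3 enamel genes 2 fell, and with the replicate block Ambn (-2.32) passed as well (adjusted p = 0.0338). Skeletal muscle genes averaged 10.26, 10.38 and 10.60 in the knockout arrays, against 9.02, 10.34 and 10.21 in the wild-type arrays, with 0 of 6 past the threshold and, with the block, 1 of 6 higher, Myh3 (0.96, adjusted p = 0.0438). No gene passed among 6 of sustentacular cells, 4 of horizontal basal cells, 4 of platelets and 3 of photoreceptors. With the block the sustentacular gene Cyp2g1 was lower (-0.36, adjusted p = 0.0114, against 0.0760 without it) and the platelet gene Pf4 higher (0.29, adjusted p = 0.0372, against 0.249 without it).

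**Figure D5:**
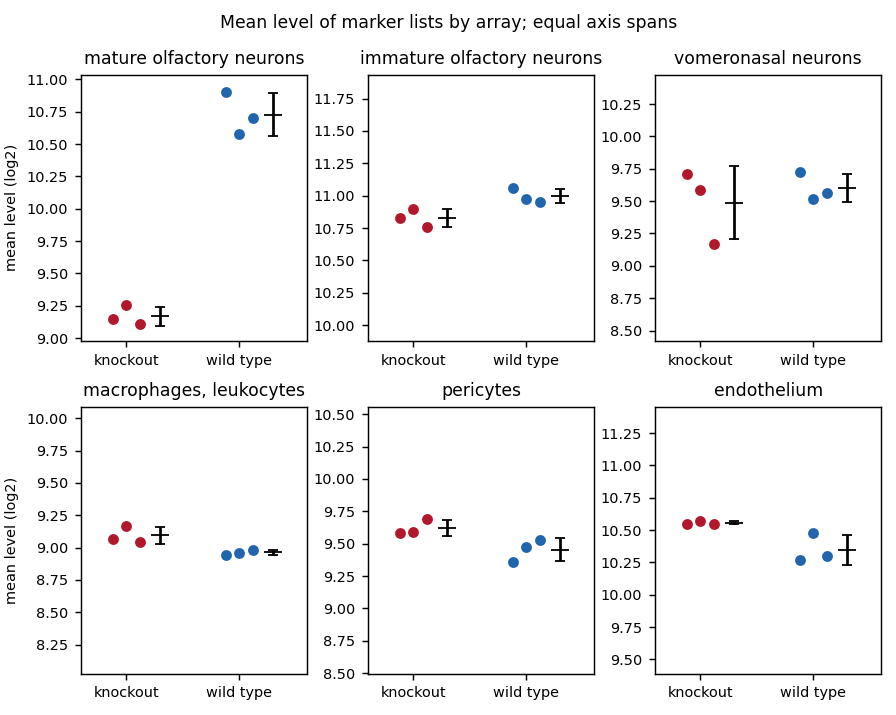
Mean log2 level of 6 marker lists on each array (points, knockout left and wild type right), with mean and SD (bars, n = 3) and equal axis spans. Mature neuron markers differ by over 1 log2 unit, and vomeronasal markers overlap between genotypes.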

How the data were processed

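RNA of 6 pooled samples was measured on 1-colour Affymetrix whole-transcript arrays after biotin labelling, per the labels' protocols. The authors' deposited log2 values were made with RMA, affy and limma, per the submitters' processing notes, which give no versions; the log base was read from the range of 4.50 to 14.7. Quantile normalization, part of RMA as generally defined, hides shifts shared by most transcripts. Of 34760 rows, 21640 name 1 gene in the platform annotation, 1321 several and 11799 none; the row with the highest mean was kept for each of 19937 genes. Array number limits precision.

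Genotypes were compared (knockout minus wild type) by limma 3.58.1 in R 4.3.3 (lmFit and eBayes, no covariate, no filter, 2-sided, Benjamini-Hochberg over all genes, threshold 0.05). The fit was also run on simulated data, but that check did not require it to detect changes as small as those of the members. SE is the moderated standard error. Members and lists were chosen with earlier results of these data known. Genes that passed with or without the block or changed by at least 0.3 are given with all values. Others given so (Gnai2, Gna12, Gnb2, Gng5, Rgs2, Rgs5 and Ric8a) were chosen after their values were seen, for their role, spread or separated arrays. Deviations from the group means of equally numbered arrays correlated at 0.295, 0.122 and 0.234 for replicates 1, 2 and 3. Those of unequally numbered arrays correlated at -0.259 to 0.0289. The numbers were therefore used as a block in an alternative fit, while the main fit left this pairing out. No label states what equal numbers have in common. The alternatives were this block, quantile normalization, median centring, filters at the 30th percentile and at the median, the mean of probe sets, a trended and robust prior, and leaving out each array.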

Additional observations from a re-analysis of the deposited data

How the results depend on the processing

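Of the 6 members that passed, Gng3 kept its call under all 13 alternatives. Gnai1, Gnao1, Gnb1 and Gng8 kept theirs under every alternative that used all 6 arrays. For these genes the mean of probe sets and both filters left the change the same, so those alternatives put the calls to little test. The number of lower members was 1 to 4 and of higher members 0 to 2 with 1 array left out. Over all genes the replicate block gave 421 higher genes (100 without it) and 889 lower ones. With 1 array left out, 27 to 127 genes were higher and 383 to 584 lower. The filter at the median left 60 higher and 226 lower genes and 1 lower accessory gene, and the filter at the 30th percentile 358 lower ones; these filters test fewer genes. Among the members and accessory genes the block added the call of Rgs6 (adjusted p = 0.0236) and ended none; among marker genes it added Stmn2, Cyp2g1, Myh3, Ambn and Pf4. Gnat3 ranged from -0.0038 (replicate 1 of the wild type left out) through -0.0032 (replicate 1 of the knockout left out) to 0.038 with 1 array left out, so its sign was not settled. The sign of 5 of the 44 members differed after quantile normalization and of 1 after median centring, and of 3 to 8 with 1 array left out (8 without replicate 2 of the knockout), none of them among those that passed. The number of arrays limits what can be called: the smallest change of a member that passed was -0.28 (Rgs3).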
